A study of Mus musculus with 16 samples.

Results

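The genes described here are 10 mouse genes of the Lin28, Myc, Hmga and Igf2bp groups (Lin28a, Lin28b, Trim71, Myc, Mycn, Hmga1, Hmga2, Igf2bp1, Igf2bp2 and Igf2bp3), taken by symbol from a transcript table of 33702 RefSeq rows, where they have 26 rows. After the rows of each gene were summed, they were 10 of 24158 genes. Lin28a, Lin28b, Trim71, Mycn, Hmga2 and the 3 Igf2bp genes have a single row each, Myc has 4 and Hmga1 has 14. All 10 were above 0 in all 16 libraries and all 10 were tested.

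Embryoid bodies (EBs), free-floating aggregates of embryonic stem (ES) cells, were made from R1 mouse ES cells kept without Lif for 4 days. RNA was taken from these 4-day-old EBs before retinoic acid (RA) was added (day 0) and after the next 4 days with 2 µM RA (day 4), so that the day 4 EBs are older as well as treated, and age and RA cannot be told apart. The EBs were grown in 2 biological replicates per day. RNA of each was split over 4 vials, to which mix 1, 2 or 3 of in vitro transcribed spike-ins or none (mix 4) was added along with ERCC spike-ins, and the vials of the 4 RNA samples became 16 libraries. Vials are splits of the same RNA, so each RNA sample was used as the mean of its 4 vials, and a comparison of the days had 2 values on each side. The labels name neither a transgene nor a second cell line, and no EBs kept for the same time without RA are among the samples.

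Lin28a and Lin28b are RNA-binding proteins of early embryonic cells that block the maturation of let-7, a family of microRNAs that accumulates as cells differentiate. Let-7 in turn represses mRNAs with matching sites in the 3′ UTR, and the Lin28 genes, Trim71, Hmga2 and the Igf2bp genes are well-known targets. Myc and Mycn are transcription factors of growth and division, Hmga1 and Hmga2 are chromatin proteins that bind AT-rich DNA, and the Igf2bp proteins bind mRNAs in the cytoplasm. Most of these genes are active in the embryo, low in adult tissue and active again in many tumours, and for that reason they are called oncofetal.

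Matches to the seed of let-7, bases 2 to 8 of the mature microRNA, were searched in these genes, and Myc and Mycn held none. Mature sequences of the family (RefSeq, GRCm38) are shown with the seed in capitals. They differ outside the seed, and let-7d also differs in the base before it.
let-7a: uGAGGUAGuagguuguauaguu
let-7d: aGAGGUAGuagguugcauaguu
let-7e: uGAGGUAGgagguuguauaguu
let-7g: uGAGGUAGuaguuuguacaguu
miR-98: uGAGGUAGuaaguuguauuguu
The other mature let-7 sequences of the table (let-7b, let-7c, let-7f and let-7i) have the same 7 bases, GAGGUAG. miR-125, which is best known as the mammalian relative of the worm microRNA lin-4, has another seed.
miR-125a: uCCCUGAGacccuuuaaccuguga
miR-125b: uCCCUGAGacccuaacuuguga

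The complement of the let-7 seed, CTACCTC, was searched in the longest 3′ UTR among the GENCODE transcripts matched to each gene, on the transcript strand only. A shorter UTR in these cells could hold fewer matches. It occurred 21 times in 8 of the 10 genes, and in 8.47% of 19212 genes with a 3′ UTR. Lin28b, Trim71, Hmga2 and Igf2bp1 held 4 matches each, Lin28a held 2, and Hmga1, Igf2bp2 and Igf2bp3 held 1 each. In all genes, 0.141% held 3 or more. Myc and Mycn held none in UTRs of 442 and 913 bases. Long UTRs hold more matches, and the median UTR of the 10 genes was 2447 bases against 855 over all genes. Among genes with a UTR of 80% to 125% of the same length, as many matches were found in 0.0972% for Hmga2, 0.367% for Lin28b, 0.415% for Igf2bp1, 0.601% for Trim71 and 2.33% for Lin28a. For the genes with a single match, the share was 8.06% for Hmga1, 12.3% for Igf2bp2 and 13.2% for Igf2bp3. Several of the 10 genes are known as let-7 targets, so the count is no independent evidence of their regulation.

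The first match of each gene after the stop codon, with the bases before it and the base after it, shows how the sites differ around the shared core. The capitals mark the match to the let-7 seed. Coordinates are GRCm38, and all of these windows lie in the 3′ UTR within 1 exon.
Lin28a (chr4:134005189-134005218, minus strand): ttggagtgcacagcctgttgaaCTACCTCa
Lin28b (chr10:45381022-45381051, minus strand): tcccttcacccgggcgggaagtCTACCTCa
Trim71 (chr9:114512472-114512501, minus strand): aaagtacaacattgcctaagtcCTACCTCa
Hmga1 (chr17:27563270-27563299, plus strand): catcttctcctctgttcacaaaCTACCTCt
Hmga2 (chr10:120364224-120364251, minus strand): ggggcgccgacattcaatttCTACCTCa
Igf2bp1 (chr11:95961778-95961807, minus strand): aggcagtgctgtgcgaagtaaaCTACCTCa
Igf2bp2 (chr16:22059473-22059502, minus strand): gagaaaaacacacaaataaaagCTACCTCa
Igf2bp3 (chr6:49086787-49086816, minus strand): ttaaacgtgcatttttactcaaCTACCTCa
An A after the core, the base most often found at effective sites, follows all of these except the match in Hmga1. It follows all 4 matches of Trim71 and both of Lin28a, but 1 of 4 in Lin28b, 1 of 4 in Hmga2 and 3 of 4 in Igf2bp1. The first matches of Hmga2 and Lin28b begin 21 and 36 bases after the stop codon. Trim71 has its matches in 2 pairs, at 166 and 262 bases and at 3591 and 3617 bases, and the second pair lies beyond the end of the RefSeq gene model. The complement of the miR-125 seed, CTCAGGG, occurred once each in Lin28a, Lin28b, Trim71 and Igf2bp3 and in 12.6% of all genes. Among genes with a UTR of like length, it was found in 25.1% for Lin28a, 32.9% for Lin28b, 37.4% for Trim71 and 21.4% for Igf2bp3. Such a match is therefore common in UTRs of this length.

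**Figure D1:**
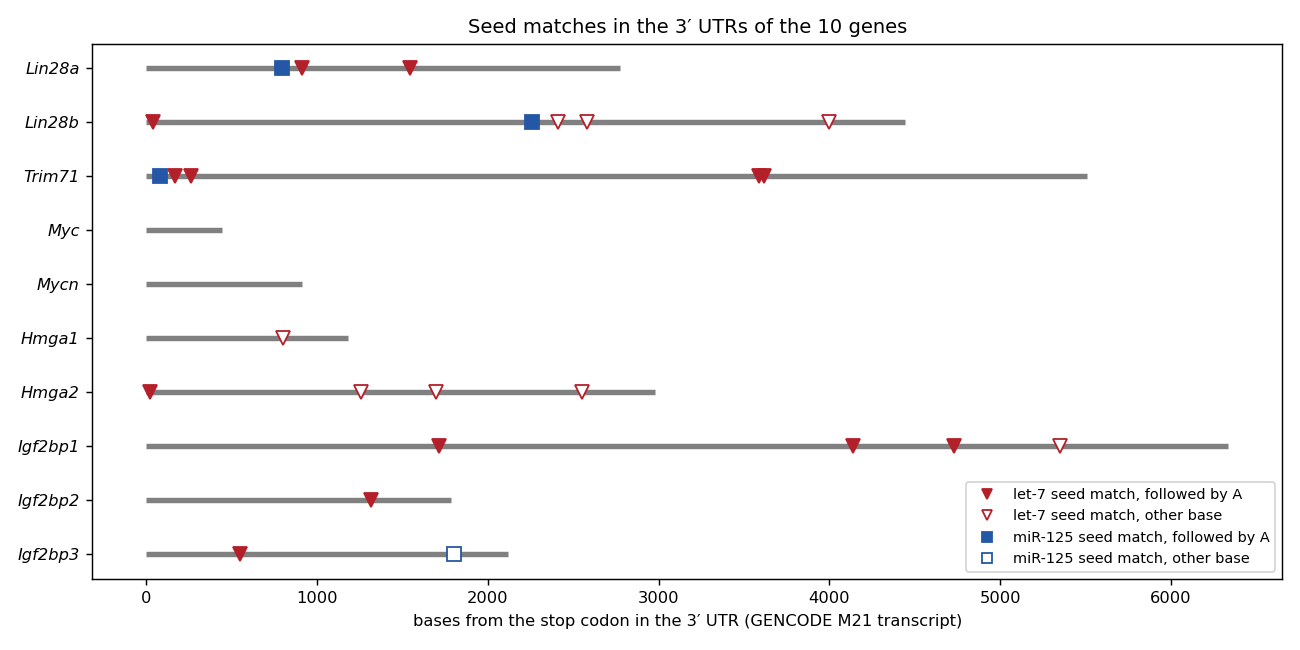
Seed matches along the 3′ UTR of the 10 genes, with the distance from the stop codon in bases on the x axis. Triangles mark let-7 matches and squares miR-125 matches, filled where an A follows. Lin28b, Trim71, Hmga2 and Igf2bp1 carry 4 let-7 matches each and Myc and Mycn carry none.

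Total signal varied more between the libraries of day 0 than between those of day 4. FPKM (fragments scaled by the length of the transcript and by the mapped fragments of the library) summed to between 411090 and 622888 per library at day 0 and between 422219 and 446834 at day 4, with 20555 to 22156 rows above 0. Within day 0 replicate 1 and each day 4 RNA sample, log2 FPKM of the vials correlated across genes with r between 0.986 and 0.994. In day 0 replicate 2 the mix 3 and mix 4 vials stood apart from the mix 1 and mix 2 vials of the same RNA, with r between 0.832 and 0.907, while they correlated with each other at 0.993. These are called the divergent vials here. The log2 ratio of the divergent vials to the other vials of that RNA fell with the GC content of the transcripts (r = -0.807 across 11428 genes, which are not independent replicates). The ratio of those other vials to day 0 replicate 1 also fell with GC content (r = -0.736 across the same genes). Leaving out the divergent vials therefore does not remove the GC gradient between the day 0 replicates. Of the 6 ES cell markers, all fell from day 0 to day 4, where 14.5% of all genes were lower by the test given below. Among them Pou5f1 (Oct4) had 87.3 and 37.2 FPKM in the day 0 RNA samples and 1.04 and 0.693 FPKM in the day 4 samples. The labels call the cells embryonic stem cells. At day 0 the mesoderm gene T was also high, at 72.7 and 61.3 FPKM.

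Of the 10 genes, 6 were lower at day 4 (Lin28a, Lin28b, Trim71, Myc, Hmga1 and Igf2bp1), Hmga2 was higher, and Mycn, Igf2bp2 and Igf2bp3 did not pass the test, which was limma's moderated test on log2(FPKM + 0.1) with Benjamini-Hochberg adjustment over 20490 genes and a limit of 0.05 on the adjusted p. Over all genes 30.5% passed, 14.5% lower and 16% higher at day 4. The median log2 fold change of the 10 genes was -2.20, and that of all genes was -0.03. In all 10 genes the mean values of the 2 day 0 RNA samples did not overlap with those of the 2 day 4 samples, as was the case for 71.1% of all genes. With the divergent vials left out, 9 of the 10 genes passed, all except Mycn, and 60.7% of all genes. When either day 4 replicate was left out, 0 of 20490 genes passed by limma (4932 and 4716 had an unadjusted p under 0.05), and no call among the 10 genes was then kept, though each kept its direction. An exact permutation test of 2 values against 2 cannot give a two-sided p under 0.333, so the calls rest on the spread that limma shares across genes. In these bulk samples, fewer cells with a transcript and less of it per cell cannot be told apart.

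**Figure D2:**
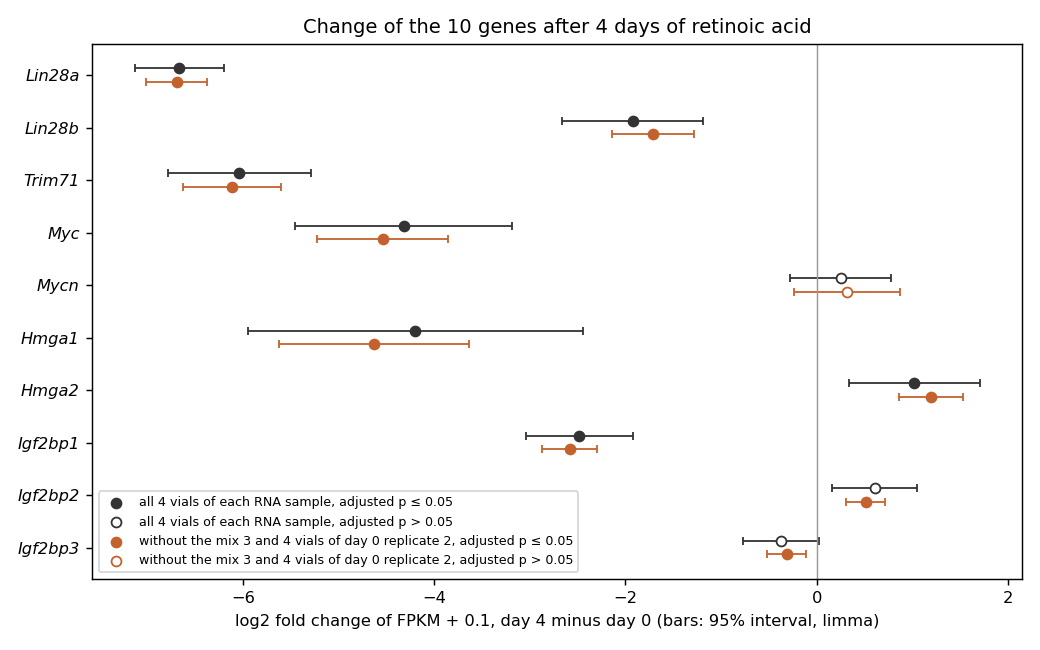
Log2 fold change of FPKM + 0.1 from day 0 to day 4 on the x axis for each gene, with its 95% interval (limma, n = 2 RNA samples per day), once with all vials and once without the mix 3 and mix 4 vials of day 0 replicate 2. Filled points passed an adjusted p of 0.05. Lin28a (-6.67) and Trim71 (-6.04) lie furthest to the left, and Hmga2 (1.02 with all vials and 1.197 without the 2 vials) lies furthest to the right.

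Lin28a, the form of Lin28 that predominates in ES cells, had the largest change of the set. Its 4 vials lay between 145 and 149 FPKM in day 0 replicate 1 (median 147) and between 132 and 146 FPKM in replicate 2 (median 140). At day 4 they lay between 1.08 and 1.35 FPKM in replicate 1 (median 1.19) and between 1.31 and 1.49 FPKM in replicate 2 (median 1.46). Every day 0 library was far above every day 4 library. The means were 143 ± 5.16 FPKM (SD, n = 2) at day 0 and 1.32 ± 0.163 FPKM (SD, n = 2) at day 4, a 109-fold lower level, and the log2 fold change was -6.67 ± 0.17 (SE, limma adjusted p = 0.00456). Only 18 of 20490 genes had a lower log2 fold change. By level, Lin28a fell from rank 551 among 18888 genes above 0 at day 0 to rank 10576 among 19720 at day 4.

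Lin28b, its paralog, fell less and stayed well above Lin28a at day 4. The day 0 vials lay between 36.2 and 38.2 FPKM in replicate 1 (median 37.2) and between 38.5 and 69.8 FPKM in replicate 2 (median 53.1). The day 4 vials lay between 9.50 and 10.9 FPKM (median 10.4) and between 12.1 and 13.9 FPKM (median 13.4). The 2 highest values at day 0 were those of the divergent vials, 69.8 and 64.8 FPKM, and all 8 day 0 libraries lay above all 8 day 4 libraries. Lin28b was 3.86-fold lower at day 4, with a log2 fold change of -1.92 ± 0.26 (SE, limma adjusted p = 0.0166), and of -1.71 (adjusted p = 0.00292) without the divergent vials. The FPKM ratio of Lin28a to Lin28b was 3.95 and 2.60 in the day 0 replicates and 0.116 and 0.108 in the day 4 replicates. At day 4, Lin28b was thus 8.60 and 9.24 times as high as Lin28a, and the order of the paralogs was inverted in both replicates.

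Trim71 (Lin41) is a stem cell ubiquitin ligase and repressor of mRNAs and, like Lin28, was first found as a timing gene of the worm. In day 0 replicate 1 its vials lay between 49.4 and 57.5 FPKM (median 50.7), and in replicate 2 between 30.8 and 44.0 FPKM (median 34.7). The day 4 vials lay between 0.503 and 0.537 FPKM (median 0.510) and between 0.553 and 0.647 FPKM (median 0.624). The days did not overlap, and the level was 78.2-fold lower at day 4, with a log2 fold change of -6.04 ± 0.27 (SE, limma adjusted p = 0.00456). Only 32 genes had a lower log2 fold change. Leaving out the divergent vials gave -6.12.

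**Figure D3:**
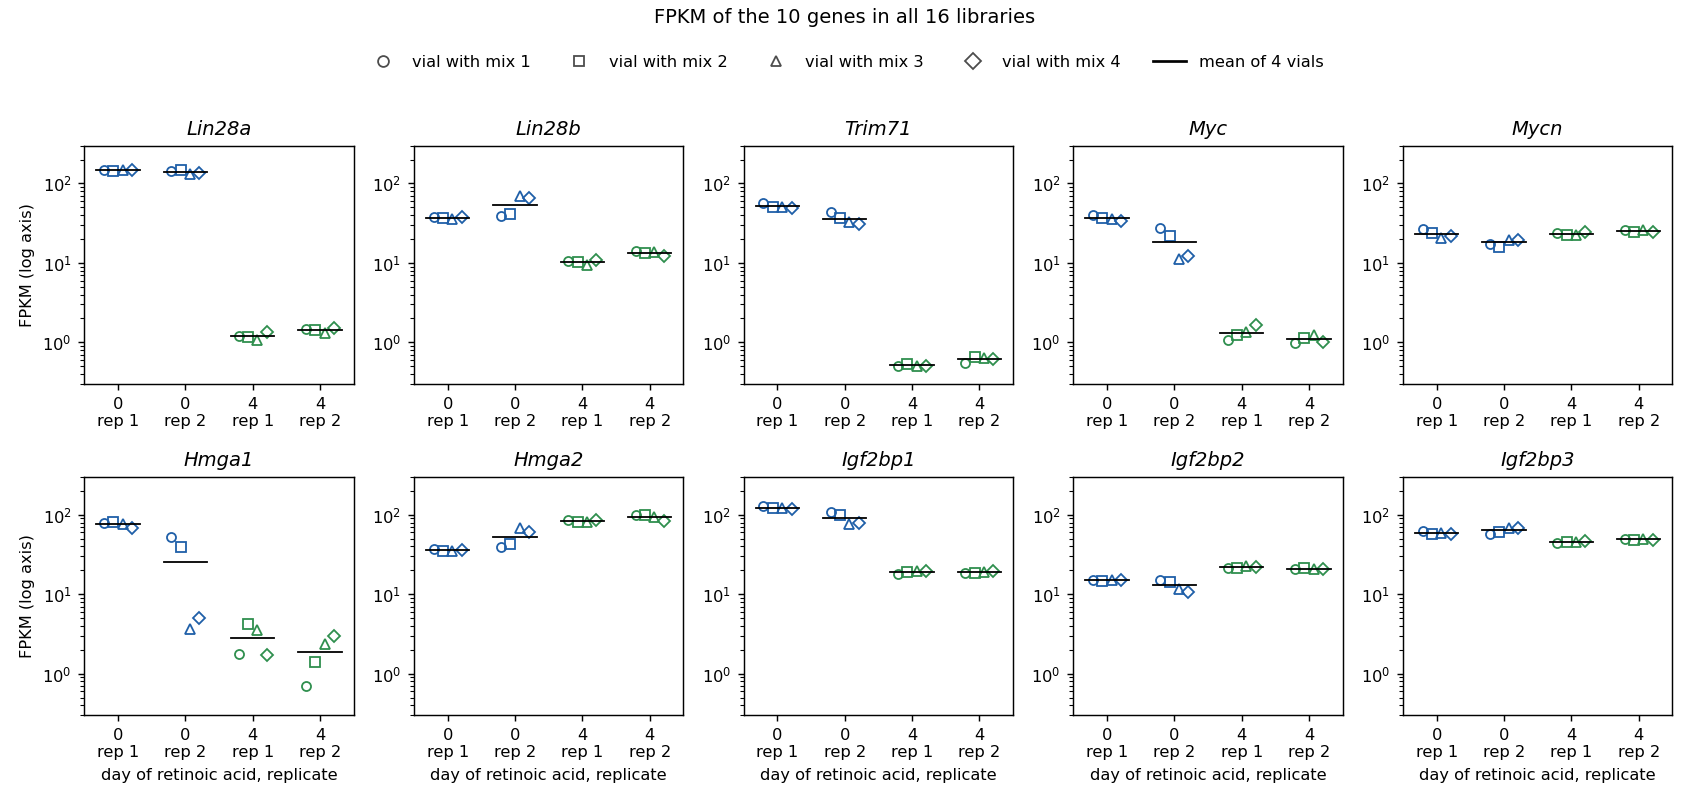
FPKM of each gene in the 16 libraries on a log axis, by day of RA and replicate. Each symbol is a vial, its shape gives the spike-in mix, and the line is the mean of the 4 vials. Lin28a, Trim71, Myc, Hmga1, Lin28b and Igf2bp1 drop from day 0 to day 4 and Hmga2 rises, while the triangles and diamonds of day 0 replicate 2 part from the circles and squares in Hmga1 (4.38 against 46.1 FPKM on average), Myc and Lin28b.

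Of the Myc family, Myc fell and Mycn did not pass the test. Myc had vials between 33.8 and 40.0 FPKM in day 0 replicate 1 (median 36.2) and between 11.1 and 27.8 FPKM in replicate 2 (median 17.2). At day 4 the vials lay between 1.08 and 1.65 FPKM (median 1.29) and between 0.970 and 1.22 FPKM (median 1.08). All day 0 libraries were above all day 4 libraries, and within day 0 the replicates did not overlap. The mean was 22.7-fold lower at day 4, with a log2 fold change of -4.32 ± 0.41 (SE, limma adjusted p = 0.00855). The divergent vials averaged 11.7 FPKM against 24.9 FPKM in the other vials of that RNA, and without them the log2 fold change was -4.54 (adjusted p = 0.00145).

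The 4 RefSeq rows of Myc were equal in pairs. NM_010849 and NM_001177352 had the same FPKM in all 16 libraries, as did NM_001177353 and NM_001177354, so the table does not tell the members of a pair apart. All 4 rows were lower at day 4 in the transcript fit, in which 18.9% of 28213 rows passed and 8.67% were lower. The log2 fold change was -4.46 ± 0.42 (SE, limma adjusted p = 0.0174) for NM_010849 and -3.40 ± 0.52 (SE, adjusted p = 0.0320) for NM_001177353. The share of the gene's FPKM in NM_010849 was 34.1% and 35.2% in the day 0 replicates and 22.7% and 29.6% in the day 4 replicates. Since 2 of the 8 day 4 libraries list either pair at 0, the shares at day 4 rest on values near or below 1 FPKM.

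Mycn, the form that prevails in neural progenitors and other embryonic tissues, did not follow Myc. It had vials between 20.8 and 26.6 FPKM in day 0 replicate 1 (median 22.5) and between 15.9 and 19.7 FPKM in replicate 2 (median 18.4). At day 4 they lay between 22.7 and 24.2 FPKM (median 23.4) and between 24.3 and 26.2 FPKM (median 25.4). The libraries of the days overlapped, although the 4 means of the RNA samples did not. The log2 fold change was 0.25 ± 0.19 (SE, limma adjusted p = 0.360), with a 95% interval from -0.28 to 0.78, which leaves room for a moderate rise and a small fall. Myc was 1.58 and 1.01 times as high as Mycn in the day 0 replicates, and 0.0568 and 0.0428 times at day 4. The value of 1.01 averages vials with opposite orders, as the ratio was 1.51 in the mix 1 and mix 2 vials of that RNA and 0.594 in the divergent vials. Mycn was therefore 17.6 and 23.3 times as high as Myc at day 4, while the difference between the 2 genes in their change was not tested.

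The Hmga genes moved in opposite directions, each with a test of its own. Hmga1 had vials between 68.5 and 81.1 FPKM in day 0 replicate 1 (median 77.6) and between 3.67 and 52.9 FPKM in replicate 2 (median 22.2). The day 4 vials lay between 1.71 and 4.27 FPKM (median 2.67) and between 0.709 and 2.998 FPKM (median 1.87). The divergent vials averaged 4.38 FPKM against 46.1 FPKM in the mix 1 and mix 2 vials of the same RNA, and the lower of them fell within the range of day 4. Hmga1 had the largest spread between vials in the set, with a coefficient of variation of 97.9% in that RNA sample. The mean was 21.6-fold lower at day 4, with a log2 fold change of -4.20 ± 0.62 (SE, limma adjusted p = 0.0195). It was -4.63 (adjusted p = 0.00228) without the divergent vials, and -2.50 (adjusted p = 0.591) when only the mix 3 vials of all RNA samples were used. With all vials kept but averaged on the log scale it was -3.92 and did not pass.

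The Hmga1b transcript, a near-identical copy on chromosome 11, is 1626 bases long and matched the closest Hmga1 transcript at 99.8% of 1602 aligned positions. Reads of the copies can hardly be told apart, so the split of FPKM between them is uncertain. Hmga1b was at 157 and 53.3 FPKM in the day 0 RNA samples and at 5.61 and 4.70 FPKM in the day 4 samples, with a log2 fold change of -4.13 ± 0.58 (SE, limma adjusted p = 0.0175), and its mix 3 and mix 4 vials in day 0 replicate 2 averaged 16.4 against 90.2 FPKM. Of the 14 Hmga1 rows, all had a lower mean at day 4, 6 passed as lower and 0 as higher (limma, adjusted p), where 8.67% of 28213 rows were lower. Reads of the gene are split between its rows, so the rows are not separate observations. The rows that passed were NM_001166540, NM_001166541, NM_001166542, NM_001166543, NM_001166536 and NM_001166545, and the highest of them, NM_001166541, went from 16.2 and 10.002 FPKM to 0.486 and 0.322 FPKM. NM_001166545 was listed at 0 in all 8 day 4 libraries. The rows NM_001025427 and NM_001166535, at 15.01 and 15.4 FPKM in day 0 replicate 1, were at 1.81 and 2.35 FPKM in replicate 2 and did not pass. The remaining rows (NM_001166544, NM_001166546, NM_001166537, NM_016660, NM_001166539 and NM_001039356) did not pass either.

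Hmga2, the classic let-7 target with a long 3′ UTR, was the only gene of the set that passed as higher at day 4. Its vials lay between 34.8 and 37.2 FPKM in day 0 replicate 1 (median 35.7) and between 39.1 and 67.4 FPKM in replicate 2 (median 52.0). At day 4 they lay between 80.1 and 86.4 FPKM (median 83.0) and between 83.4 and 99.6 FPKM (median 96.1). All 8 day 4 libraries were above all 8 day 0 libraries. The mean rose 2.00-fold, from 44.2 ± 11.9 to 88.5 ± 7.54 FPKM (SD, n = 2), with a log2 fold change of 1.02 ± 0.24 (SE, 95% interval 0.33 to 1.71, limma adjusted p = 0.0492). This value is just under the limit, and the adjusted p ranged from 0.00218 to 0.413 and passed in 7 of 19 alternative settings, with a positive change in each of them. The divergent vials, at 64.0 FPKM on average, were closest to day 4, and without them the change was 1.197 (adjusted p = 0.00355). With all vials, the single row of Hmga2 had the same change of 1.02 in the transcript fit and did not pass there (limma adjusted p = 0.0665).

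The ratio of Hmga2 to Hmga1 was 0.470 and 2.09 in the day 0 replicates and 29.4 and 50.3 in the day 4 replicates. In day 0 replicate 2 it was 0.897 in the mix 1 and mix 2 vials and 14.6 in the divergent vials. With Hmga1b added to Hmga1, the ratio of Hmga1 to Hmga2 was 6.51 and 1.49 at day 0 and 0.101 and 0.0700 at day 4. In day 0 replicate 2 this ratio was 3.30 in the mix 1 and mix 2 vials and 0.325 in the divergent vials, so that the order turned within the same RNA. Hmga2, with 4 let-7 seed matches, was higher at day 4, whereas Lin28b, Trim71 and Igf2bp1, with as many, were lower.

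The Igf2bp genes (also known as Imp1 to Imp3) encode proteins that hold mRNAs in cytoplasmic granules and affect their stability, transport and translation. Igf2bp1 was the member that passed the test. Its vials lay between 120 and 128 FPKM in day 0 replicate 1 (median 121) and between 75.8 and 110 FPKM in replicate 2 (median 90.4). The day 4 vials lay between 18.1 and 19.5 FPKM (median 19.1) and between 18.4 and 19.5 FPKM (median 18.8). The days did not overlap, and the day 4 replicates were almost equal, with means of 18.98 and 18.87 FPKM. Igf2bp1 was 5.67-fold lower at day 4, with a log2 fold change of -2.48 ± 0.20 (SE, limma adjusted p = 0.00671), and of -2.58 without the divergent vials.

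Igf2bp2, which is known from muscle and metabolism and stays expressed in adult tissue, was the lowest of the 3 at day 0. Its vials lay between 14.7 and 15.3 FPKM in replicate 1 (median 15.1) and between 10.8 and 15.3 FPKM in replicate 2 (median 12.98). At day 4 the vials lay between 21.2 and 22.7 FPKM (median 21.7) and between 20.6 and 21.1 FPKM (median 21.003). All day 4 libraries were above all day 0 libraries, but the test was missed, with a log2 fold change of 0.61 ± 0.16 (SE, 95% interval 0.16 to 1.05, limma adjusted p = 0.0575). The change was 0.51 (adjusted p = 0.00756) without the divergent vials, in which Igf2bp2 averaged 11.2 FPKM.

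Igf2bp3, the form most often found in tumours, had vials between 57.5 and 61.7 FPKM in day 0 replicate 1 (median 58.2) and between 58.2 and 69.0 FPKM in replicate 2 (median 64.3). The day 4 vials lay between 44.7 and 46.2 FPKM (median 46.0) and between 48.2 and 50.3 FPKM (median 49.0). Here too no library of day 4 reached day 0. The log2 fold change was -0.37 ± 0.14 (SE, 95% interval -0.77 to 0.02, limma adjusted p = 0.119), and -0.32 (adjusted p = 0.0264) without the divergent vials. Scaling each library to the same sum (TPM), which moved the median of all genes from -0.03 to 0.09, gave -0.11 (adjusted p = 0.770).

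The makeup of the Igf2bp group differed between the days. The 3 genes summed to 197 and 169 FPKM in the day 0 replicates and to 86.5 and 89.0 FPKM at day 4. Igf2bp1 held 62.4% and 54.4% of the sum at day 0 and 21.9% and 21.2% at day 4. Igf2bp3 held 29.95% and 37.9% before RA and 52.9% and 55.3% after it, and took the place of Igf2bp1 as the highest of the group. The share of Igf2bp2 was 7.65% and 7.71% at day 0 and 25.2% and 23.5% at day 4. These shares describe the RNA samples and were not tested.

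Across the set, the order of levels (FPKM, which is scaled by transcript length) was rearranged. At day 0 the means ran from Lin28a (143 FPKM) and Igf2bp1 (107 FPKM) through Igf2bp3 (61.4), Hmga1 (50.7), Lin28b (45.4), Hmga2 (44.2), Trim71 (44.0), Myc (27.4) and Mycn (20.6) to Igf2bp2 (14.025 FPKM). Lin28a, Igf2bp1 and Igf2bp2 were separated from their neighbours in both replicates, while the genes from Igf2bp3 to Mycn overlapped with the next in this order. At day 4 the order was Hmga2 (88.5 FPKM), Igf2bp3 (47.4), Mycn (24.4), Igf2bp2 (21.4), Igf2bp1 (18.9), Lin28b (11.8), Hmga1 (2.35), Lin28a (1.32), Myc (1.21) and Trim71 (0.563 FPKM). Only Lin28a and Myc overlapped with each other among these neighbours.

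The position of the 10 genes in the divergent vials fell with their GC content, though not in strict order. The GC content ran from 40.6% in Lin28b to 60.7% in Hmga1 around a median of 49.9% over all genes. The log2 ratio of the divergent vials to the mix 1 and mix 2 vials was 0.75 in Lin28b, 0.63 in Hmga2 and 0.22 in Igf2bp3. It was -0.11 in Lin28a, -0.35 in Trim71, -0.41 in Igf2bp2, -0.44 in Igf2bp1, -1.09 in Myc and -3.37 in Hmga1. Mycn, with 54.8% GC, departed from this order with 0.25, and Trim71, with 53.8% GC, was above Igf2bp1 and Igf2bp2, which have less GC. The directions given for the 10 genes did not rest on these vials, since each was the same without them.

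**Figure D4:**
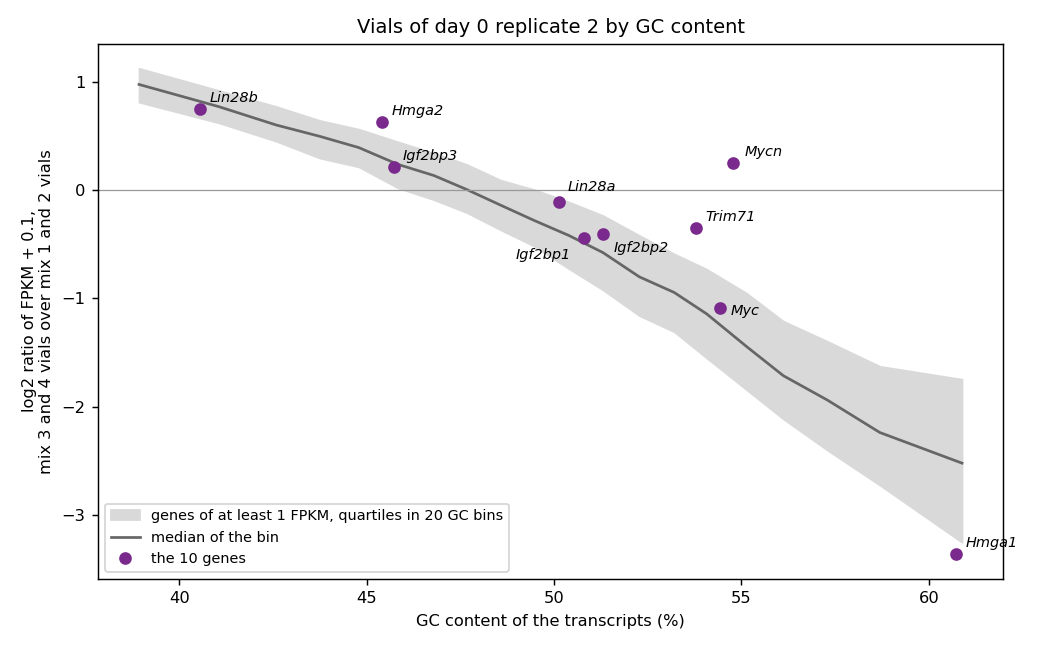
GC content of the transcripts in percent on the x axis, and on the y axis the log2 ratio of FPKM + 0.1 in the mix 3 and mix 4 vials over the mix 1 and mix 2 vials of day 0 replicate 2. The grey band holds the quartiles of all genes of at least 1 FPKM in 20 GC bins and the points are the 10 genes, which run from 0.75 in Lin28b to -3.37 in Hmga1.

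Lin28 acts on the machinery that makes microRNAs. Of 20 genes of let-7 processing and Lin28 partners, 5 were lower at day 4, 1 was higher and 14 did not pass, which is near the share of all genes that passed (30.5%), and their median log2 fold change was 0.12. Xpo5, which exports microRNA precursors from the nucleus, had a log2 fold change of -1.17 ± 0.17 (SE, limma adjusted p = 0.0196). Tarbp2, a Dicer partner, had -2.43 ± 0.57 (adjusted p = 0.0471), and Ago2, the slicing Argonaute, had -1.12 ± 0.22 (adjusted p = 0.0327). Drosha (-0.94) and Dicer1 (-0.60), the enzymes that cut the precursors, were the other lower genes, and Prkra, another Dicer partner, was the higher one (1.11). These last 3 were picked after their values were seen. The highest in level were Hnrnpa1, Ddx5 and Ddx17, at 407, 327 and 105 FPKM in day 0 replicate 1, and they did not pass. Without the divergent vials 8 of the 20 were lower and 7 higher, where all genes had 33.6% lower and 27.1% higher.

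The table says little about let-7 itself. It has a row for each of 15 hairpin genes of let-7, miR-98 and miR-125, and 14 of them were listed at 0 in all libraries. Mirlet7d was the exception, with a highest value of 0.635 FPKM in any library, and did not pass (limma adjusted p = 0.251). Neither the precursors nor the mature microRNAs were measured by a small RNA method in the files used here.

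Of 20 other known let-7 targets, 6 were lower at day 4, 1 was higher and 13 did not pass, with a median log2 fold change of -0.13. That 7 of 20 passed is near the 30.5% of all genes. Arid3b, a DNA-binding protein, had -3.41 ± 0.36 (SE, limma adjusted p = 0.0103). Ccnd1, cyclin D1, had -3.38 ± 0.26 (adjusted p = 0.00654), and Nr6a1, an orphan nuclear receptor of the early embryo, had -2.25 ± 0.18 (adjusted p = 0.00659). Bach1, picked after its value was seen as the higher gene, had 0.89. Rdx and Map4k4, among the highest in level, had log2 fold changes of -0.10 and -0.87 and did not pass. Leaving out the divergent vials gave 9 lower and 4 higher, where all genes had 33.6% lower and 27.1% higher.

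The partners of Myc in its network showed 3 lower genes, 1 higher and 11 that did not pass among 15, against 30.5% that passed of all genes, with a median log2 fold change of -0.70. Mxi1, which competes with Myc for Max, rose from 2.88 and 2.95 FPKM to 10.0 FPKM in both day 4 replicates, with a log2 fold change of 1.75 ± 0.17 (SE, limma adjusted p = 0.00919). Aurka, a kinase that stabilises the Mycn protein, had -1.56 ± 0.30 (adjusted p = 0.0328), and Mlxip, a glucose-sensing relative, had -1.33 ± 0.25 (adjusted p = 0.0307). The third lower gene, Mlxipl, was at or below 0.0700 FPKM in every RNA sample and is named here because the count is small. Max and Mlx, the common dimerisation partners and among the highest in level, had -0.70 (adjusted p = 0.0511) and -0.78 (adjusted p = 0.0556). Without the divergent vials, 9 of the 15 were lower and 3 higher, where all genes had 33.6% lower and 27.1% higher.

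Known targets of Myc, many of them genes of ribosome assembly and metabolism, were lower or did not pass. Of 20, 13 were lower, 0 were higher (0 of 20 by limma's adjusted p) and 7 did not pass, and the median log2 fold change was -1.14. Among all genes, 14.5% were lower and 16% higher. Cad, the enzyme that starts pyrimidine synthesis, went from 86.8 and 37.1 FPKM to 4.53 and 3.63 FPKM, with a log2 fold change of -3.77 ± 0.47 (SE, limma adjusted p = 0.0142). Srm, spermidine synthase, had -3.56 ± 0.53 (adjusted p = 0.0198), and Fbl, the nucleolar methyltransferase fibrillarin, had -2.49 ± 0.41 (adjusted p = 0.0241). Npm1, Hspd1 and Hspe1, a nucleolar chaperone and a mitochondrial chaperonin pair, were the highest in level and had -0.13, -0.64 and -0.65, which did not pass. Without the divergent vials, 17 of the 20 were lower and 1 was higher, where all genes had 33.6% lower and 27.1% higher. Many of these genes are targets of Mycn as well.

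The other HMG genes, chromatin proteins of the HMG box and nucleosome-binding families, included some that rose. Of 9 tested, 3 rose, 0 fell (by limma's adjusted p) and 6 did not pass, a share near the 30.5% of all genes that passed, with a median log2 fold change of 0.61. Hmgn3 rose by 1.48 ± 0.20 (SE, limma adjusted p = 0.0160), Hmgxb4 by 1.30 ± 0.13 (adjusted p = 0.00956) and Hmgn2 by 0.99 ± 0.19 (adjusted p = 0.0314). Hmgn2 went from 334 and 405 FPKM to 712 and 745 FPKM. Hmgb1 and Hmgn1, the other most abundant members, had 0.77 and 0.32 and did not pass. Without the divergent vials 7 were higher and 1 lower, where all genes had 27.1% higher and 33.6% lower. Hmgb4 was at 0 in every library and was not tested.

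Of 9 mRNAs known to be bound by Igf2bp proteins, 1 rose, 2 fell and 6 did not pass, also near the 30.5% of all genes, with a median log2 fold change of -0.81. H19, the other RNA of this list, was not analysed here. Igf2, the growth factor mRNA that gave the family its name, rose from 83.4 and 58.0 FPKM to 224 and 200 FPKM, with a log2 fold change of 1.61 ± 0.24 (SE, limma adjusted p = 0.0193). Cd44, an adhesion receptor, fell by 3.12 ± 0.19 on the log2 scale (adjusted p = 0.00486), and Mapk4, an atypical MAP kinase, by 1.61 ± 0.27 (adjusted p = 0.0250), the latter at under 1 FPKM. Actb and Actg1, the cytoplasmic actins, had -1.80 (adjusted p = 0.0543) and -0.91 (adjusted p = 0.105). Actb was at 2610 and 1190 FPKM in the day 0 replicates, a wide gap within the day. Without the divergent vials, 5 fell and 1 rose, where all genes had 33.6% lower and 27.1% higher.

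Among 13 genes of proteins that act with the Igf2bp proteins in the cytoplasm, 1 was higher, 2 were lower and 10 did not pass. That is near the 30.5% of all genes that passed, and the median log2 fold change was -0.16. Stau2, which carries mRNAs in neurons, rose from 2.97 and 3.52 FPKM to 23.6 and 25.2 FPKM, with a log2 fold change of 2.88 ± 0.18 (SE, limma adjusted p = 0.00483). Pabpc1, the cytoplasmic poly(A)-binding protein, had -1.02 ± 0.15 (adjusted p = 0.0187), and Ybx1, a cold shock domain protein, had -0.86 ± 0.19 (adjusted p = 0.0407). Hnrnpu and Fxr1, high in level, had -0.15 and 0.16 and did not pass. Leaving out the divergent vials gave 4 higher and 3 lower, where 60.7% of all genes passed.

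**Figure D5:**
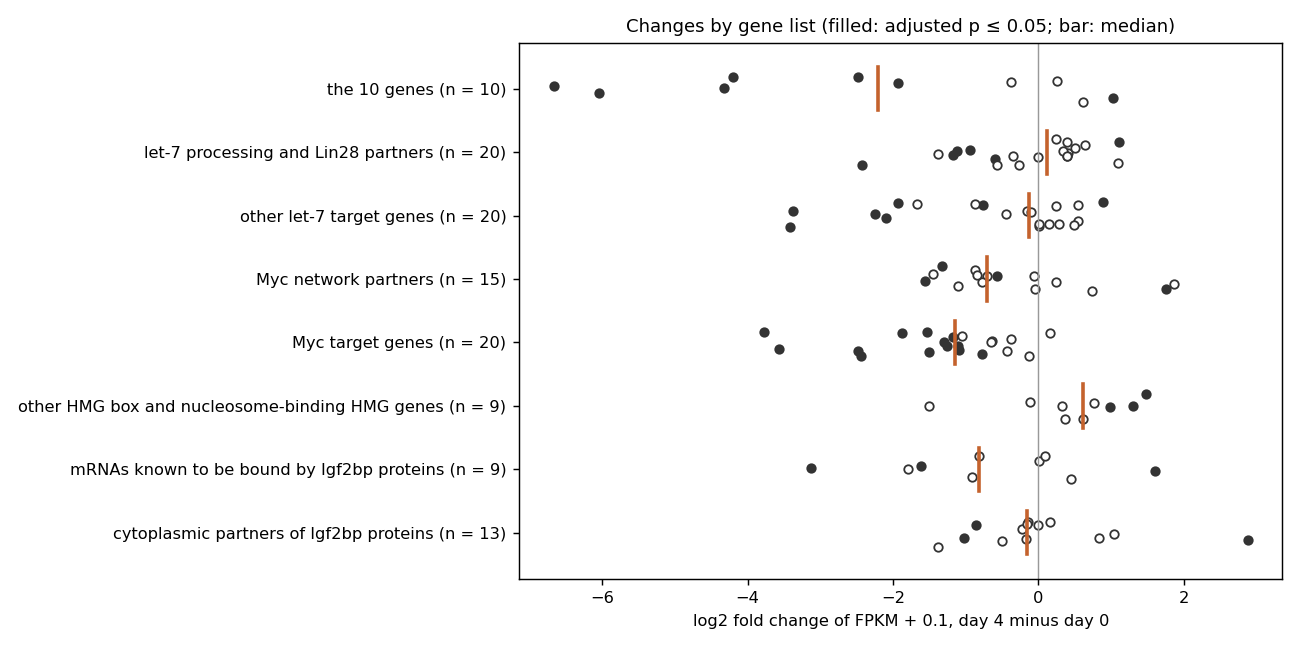
Log2 fold change from day 0 to day 4 on the x axis for the 10 genes and 7 lists of related genes, a point for each gene, filled where the adjusted p was at most 0.05 (limma), with the median of each list as a bar. The medians run from -2.20 for the 10 genes and -1.14 for Myc targets to 0.61 for the other HMG genes.

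The E-box CACGTG, the preferred site of Myc and Max, was searched in the promoters of the table, 250 bases before to 50 bases after the start of each promoter entry (GRCm38). The motif is its own reverse complement, so both strands are covered. Of 8 of the genes with a promoter in the table, 2 held it, Lin28b at -49 and Igf2bp3 at -23 and 5 relative to that start, and 7.15% of 32851 promoters held it. Both windows lie inside the RefSeq gene model, on the minus strand. They are chr10:45470152-45470451 for Lin28b, whose model runs to 45486314, and chr6:49214905-49215204 for Igf2bp3, whose model runs to 49215469. The match is a description of these windows only.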

How the data were processed

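RNA was sequenced from 16 libraries, which are 4 vials of each of 4 RNA samples. The labels give the day and mix of a library, and the study's sample table gives its RNA sample. The authors aligned strand-specific reads of rRNA-depleted total RNA to RefSeq transcripts of mm10 and spike-ins with Bowtie2 2.1.0, estimated abundance with RSEM 1.2.18 and deposited FPKM scaled by a TMM factor per library. TopHat2 2.0.10 is also named in the submitters' processing notes. The deposited FPKM hold no fragment counts, so no counting error or detection limit is given, and 0 columns lacked a sample.

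Rows were matched to gene symbols (99.2%) and summed per gene, and the transcript 1700047L14Rik was left out, as in the study. The mean FPKM of the 4 vials, plus 0.1, was tested on the log2 scale with limma 3.58.1 in R 4.3.3 (lmFit and eBayes with a trend, two-sided, Benjamini-Hochberg over all genes above 0 in any library). The fits were tested on simulated data with independent errors for each gene, which hold no shift shared across genes and so cannot show its effect. Fold changes on this scale understate changes of low genes. Other tools were Python 3.11.15, numpy 2.4.6, pandas 2.3.3 and matplotlib 3.10.9.

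The 10 genes and all lists were chosen with earlier results of these data known. Named are the 10 genes, their rows where a gene has several, the near-identical copy Hmga1b and, of each pathway list, the 3 highest in level and the 3 largest changes that passed, apart from genes said to be picked later. Genes named from the cell type marker lists, as well as Klf4, Cyp26a1 and Hoxb1, were picked after their values were seen. The values of a gene that this rule names are not reported here. Alternatives were other pseudocounts (0.01 and 1), a filter at 1 FPKM, other scaling and variance models, a replicate block, single mixes, vials left out, log averages and each replicate left out. Spike-ins were not analysed here.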

Additional observations from a re-analysis of the deposited data

How the results depend on the processing

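Over 19 alternative settings the 10 genes gave 190 values, of which 148 kept their direction and side of the threshold, 33 kept the direction but no longer passed, 9 newly passed and 0 reversed. The number of genes that passed was 6251, and it was 4157 with a mean of at least 1 FPKM, 10586 with the replicate block, 11596, 736 and 1412 with mix 1, mix 3 and mix 4 vials alone, 12430 without the divergent vials and 0 to 9232 with a replicate left out. For transcripts, 5321 passed, against 10050 with the replicate block, 12472, 0 and 298 with mix 1, mix 3 and mix 4 vials alone (4932 had an unadjusted p under 0.05 by limma for mix 3), 14423 without the divergent vials and 0 to 7795 with a replicate left out, where the counts of 0 had 11394, 5766 and 5476 transcripts at an unadjusted p under 0.05. The cause of these differences was not tested.

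With mix 3 and mix 4 vials alone, the log2 fold changes that no longer passed were -2.14 and -2.09 for Lin28b, -3.85 and -3.88 for Myc, -2.50 and -2.995 for Hmga1, 0.84 and 0.85 for Hmga2 and -2.32 and -2.33 for Igf2bp1. Averaging vials on the log scale gave -3.92 for Hmga1 and 1.04 for Hmga2, which did not pass. Hmga2 also missed the threshold with a pseudocount of 1 (1.01), TPM (1.28), median-ratio scaling (1.08), no trend or a robust fit (both 1.02) and without the day 4 vial with more rRNA (1.01). Igf2bp2 passed with TPM (0.89), no trend and the replicate block (both 0.61), mix 1 (0.46), mix 2 (0.54) and without the divergent vials (0.51). Igf2bp3 passed with mix 2 and without the divergent vials (both -0.32).

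With a replicate left out, the log2 fold change ran from -6.78 to -6.55 for Lin28a, -2.19 to -1.66 for Lin28b, -6.30 to -5.77 for Trim71, -4.81 to -3.82 for Myc, 0.08 to 0.43 for Mycn, -4.99 to -3.40 for Hmga1, 0.74 to 1.30 for Hmga2, -2.69 to -2.27 for Igf2bp1, 0.50 to 0.71 for Igf2bp2 and -0.43 to -0.31 for Igf2bp3. The lone RNA sample of a day was then assumed to vary like those of the other day. Igf2bp2 passed without day 0 replicate 1.

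The differences between replicates 2 and 1 correlated between the days at 0.769 across 11583 genes, and at 0.622 without the divergent vials. The main fit held no replicate term, so this shared difference was left in its error. The replicate block made Igf2bp2 pass (adjusted p = 0.0331) and ended no call among the 10 genes. Single vials, a single RNA sample per replicate and the lack of fragment counts limit the precision.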

Other observations

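Gene groups outside the Lin28, Myc, Hmga and Igf2bp pathways give the setting of these changes. For comparison with the counts below, 14.5% of all genes were lower at day 4 and 16% higher. Of 10 pluripotency genes, 9 were lower at day 4, Klf4 alone did not pass (limma, adjusted p), and the median log2 fold change was -2.50. Tdgf1 (Cripto), a Nodal co-receptor, had -6.71 ± 0.22 (SE, limma adjusted p = 0.00456), Pou5f1 had -5.91 ± 0.50 and Dppa5a had -2.96 ± 0.41. Of 10 genes of the response to RA, 8 were higher, with Rarb, an RA receptor, at 8.50 ± 0.17, Hoxa5 at 7.55 ± 0.19 and Dhrs3, a retinal reductase, at 6.72 ± 0.32. Cyp26a1, the main RA-degrading enzyme of the early embryo, was the lower gene, from 48.9 and 52.4 FPKM to 8.43 and 9.34 FPKM, and Hoxb1 did not pass.

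Markers of cell types moved unevenly, and their counts stand beside 16% of all genes higher and 14.5% lower. Of 6 endoderm markers 4 were higher and 0 lower by limma, led by Gata6, from 6.25 and 6.47 FPKM to 53.2 and 55.7 FPKM. Of 6 fibroblast and mesenchyme markers 4 were higher and 1 lower, and Col3a1 rose from 1.18 and 0.550 FPKM to 162 and 152 FPKM. Among 6 mesoderm and blood markers, of which 2 were higher and 4 lower, T had a log2 fold change of -9.13 and the embryonic globin Hbb-y one of 5.24. Of 5 neural progenitor markers, 2 were higher and 1 lower. Nes, the highest of them, was at 22.9 and 18.7 FPKM before RA and at 18.3 and 20.4 FPKM after it and did not pass, and Pax6 was at 0.424 and 0.319 FPKM at day 4. Neuronal markers (1 higher and 2 lower of 5) included Dcx at 2.13 and 2.50 FPKM at day 4 and Tubb3, which fell from 17.6 and 6.46 FPKM to 0.874 and 0.648 FPKM. The part of these cell types in the changes of the 10 genes was not tested. In 40 sets of 4 vials, 0 held a vial past Dixon's 95% critical value, a test for a single outlier that could not detect the 2 divergent vials against the other 2 of day 0 replicate 2.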
